A study of Mus musculus with 104 samples.

Results

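The 4 simple epithelial keratins Krt7, Krt8, Krt18 and Krt19 were followed through 104 mouse bulk RNA-seq libraries in 26 groups. They were taken by symbol from 24958 counted genes, and all 4 were found in each of the 18 count tables. Levels are in CPM, the usual unit in which counts are scaled to one common library total.

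Most libraries came from TC1-GFP, a mouse embryonic stem cell line labelled wild type. Cultures derived from it were TELC and PreLC, both in SFH medium (n = 3 each, passages 0, 1 and 2), EB-TSC in TSC medium (n = 1, passage 1) and blastoids in TNKM medium (n = 2). Embryoid bodies (EBs) were grown in serum from mTBLCs or from TC1-GFP cells (n = 4 each, days 3, 8, 10 and 12). The mTBLCs, which the series calls totipotent blastomere-like cells, are TC1-GFP cells kept in 2MYCP medium, here divided into early (n = 3, passages 1, 2 and 4) and established cultures (n = 4, passages 6, 8, 14 and 19). Time courses, which the sample descriptions (SFH and S/L) or the name of the deposited table (NTF) call mTBLC differentiation and whose cell line is TC1-GFP, ran in NTF (n = 7, to 96 h), SFH (n = 23, to 96 h) and S/L medium (n = 20, to 92 h). Variants of the 2MYCP culture used gelatin as the surface (n = 2, passages 7 and 8), left out the component abbreviated C (2MYP, n = 2, passages 7 and 8), carried a Ctnnb1 knock-out (n = 1, passage 7) or received ICG001, a blocker of beta-catenin and CBP (n = 1, passage 7). Their references were 2MYC medium (n = 6, passages 1 to 6), which lacks the component abbreviated P, and mouse pluripotent stem cells in S/L medium (mPSCs, n = 3). The ZHBTc4 line, whose Pou5f1 is shut off by doxycycline, was sampled from 2MYCP with doxycycline (n = 4, passages 1 to 4), from passage 12 in 2MYCP with (n = 1) and without (n = 1) doxycycline, from 2MYC labelled with doxycycline (n = 2, passages 2 and 3), and from S/L with (n = 1) and without (n = 1) doxycycline. Lines from blastomeres of ICR embryos grew in 2iLP medium (titled 4nM and 2-5nM, n = 2 each, passages 4 and 5), and 1 library came from ICR blastocysts of embryonic day E3.5. The characteristics of the ZHBTc4 libraries also name TC1-GFP and a wild-type genotype, the media names are not expanded, and no label says that libraries of a group were separate cultures. The p-values therefore measure the spread between libraries. In most groups this spread includes differences of passage or day, unless these were a block in the fit. In groups without such labels it may be technical.

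Keratins are intermediate filament proteins that assemble only as pairs of a type II member, here Krt7 or Krt8, with a type I member, here Krt18 or Krt19. Krt8 and Krt18 form the first intermediate filaments of the mouse embryo and fill the trophectoderm, the outer epithelium of the blastocyst that builds the placenta. Krt7 and Krt19 join them in many simple epithelia, trophoblast among them, and the filaments are anchored to desmosomes through the plakin desmoplakin (Dsp). Pluripotent cells hold little keratin, so this family is widely used to mark epithelial and extra-embryonic cells.

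Krt7, Krt8 and Krt18 lie on mouse chromosome 15 and Krt19 on chromosome 11 (GRCm38.p6, RefSeq). Krt8 (bases 101996711 to 102004342) and Krt18 (102028216 to 102032026) are the neighbouring type II and type I pair, with 23.9 kb between their ends, while Krt7 (101412403 to 101427806) ends 568.9 kb before Krt8. RefSeq promoter windows, from 250 bases before to 50 bases after the annotated start, were found for Krt7, Krt8 and Krt18 and are shown. The promoter source held no window for Krt19. Capitals mark matches to any of 7 motifs searched on both strands, read 5′ to 3′ on the gene's strand.
Krt7, chr15:101412153-101412452, plus strand: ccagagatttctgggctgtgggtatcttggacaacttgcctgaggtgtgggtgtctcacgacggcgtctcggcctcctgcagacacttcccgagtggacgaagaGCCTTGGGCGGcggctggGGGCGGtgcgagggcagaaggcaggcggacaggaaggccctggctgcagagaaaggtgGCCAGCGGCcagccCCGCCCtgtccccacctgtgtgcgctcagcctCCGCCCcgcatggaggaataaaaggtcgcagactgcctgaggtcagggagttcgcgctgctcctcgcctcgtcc
Krt8, chr15:102004293-102004592, minus strand: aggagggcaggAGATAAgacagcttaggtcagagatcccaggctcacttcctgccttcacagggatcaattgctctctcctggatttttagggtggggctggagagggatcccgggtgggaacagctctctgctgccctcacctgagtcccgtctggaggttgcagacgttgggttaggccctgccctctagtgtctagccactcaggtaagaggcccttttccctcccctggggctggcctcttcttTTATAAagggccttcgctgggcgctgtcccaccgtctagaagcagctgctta
Krt18, chr15:102027966-102028265, plus strand: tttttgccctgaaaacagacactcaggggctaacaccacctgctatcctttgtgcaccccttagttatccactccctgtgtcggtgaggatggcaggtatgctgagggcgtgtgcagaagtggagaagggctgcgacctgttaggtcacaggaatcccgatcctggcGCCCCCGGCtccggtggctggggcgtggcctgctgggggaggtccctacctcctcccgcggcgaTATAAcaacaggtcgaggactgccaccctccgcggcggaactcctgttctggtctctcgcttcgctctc
The Krt7 window held 4 GC boxes (GGGCGG), starting at positions -141, -128, -56 and -24 from the start, and 2 AP-2 motifs (GCCNNNGGC) at -146 and -70, the first of which overlaps a GC box. The Krt8 window held the TATA core (TATAA) at -1 on its own strand and at -2 on the other, overlapping each other, and a GATA motif (AGATAA) at -239. The Krt18 window held TATAA at -19 and an AP-2 motif at -83. Among 32851 windows of the same length, 24.9% held TATAA, 35.7% the GC box, 16.6% the AP-2 motif and 11.2% the GATA motif. The AP-1 motif (TGANTCA), the TEAD motif (GGAATG) and the ETS motif (CCGGAAG) were held by 7.81%, 14.7% and 8.86% of windows and by none of the 3 shown. A match is a description of letters, not a bound site.

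Libraries held 1040731 to 56992230 counts (1.04 to 57.0 M, median 22.8 M). Krt8, Krt18 and Krt19 reached 1 CPM in 104 of 104 libraries and Krt7 in 77, with Krt7 at 0 counts in 5 libraries, all of the SFH course. A count of 0 allows up to 3 counts, and such limits cover counting error only. Some libraries stood apart. The EB library of mTBLCs labelled day 3 had 18.9 CPM of Pou5f1, the pluripotency factor, and the one labelled day 8 had 944 CPM, against the order of the days, and 60.4 and 44.6 CPM followed at days 10 and 12. The ZHBTc4 library titled without doxycycline at passage 12 had 86.6 CPM of Pou5f1, against 620 CPM in ZHBTc4 cells in S/L. The ZHBTc4 library in 2MYC at passage 2 held only 1.04 M counts. Level also followed gene length differently between libraries: the slope of log2(CPM + 1) over a 10-fold longer gene ran from -0.98 in TELC at passage 1 to 1.98 in 1 EB library.

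Across the groups, keratin levels spanned several orders of magnitude, and libraries of the ZHBTc4 line held the most. Summed over the 4 genes, the median library had 137 CPM, the highest, ZHBTc4 in 2MYCP at passage 12 titled without doxycycline, had 12882 CPM, and the lowest, a blastomere line in 4nM at passage 5, had 10.3 CPM. Krt8, the type II partner present from the first epithelium on, ranged from 1.96 CPM in that blastomere line to 4633 CPM in that ZHBTc4 library. Its group medians stood at 2118 CPM in EB-TSC, 2042 CPM in ZHBTc4 with doxycycline in 2MYCP, 1460.2 CPM in the E3.5 blastocyst, 705 CPM in TELC and 626 CPM in blastoids, then at 165 CPM in PreLC, 44.5 CPM in established 2MYCP, 26.7 CPM in mPSCs and 16.5 CPM in 2MYC. Krt18, its type I partner, followed nearly the same order, with 2717 CPM in ZHBTc4 with doxycycline in 2MYCP, 1272 CPM in the blastocyst, 1231 CPM in TELC, 82.8 CPM in PreLC, 18.5 CPM in established 2MYCP and 17.998 CPM in mPSCs. Krt7 had the lowest group median of the 4 genes, except that Krt19 was lower in ZHBTc4 with doxycycline in 2MYCP (237 CPM), in ZHBTc4 at passage 12 without it and in the blastocyst, and Krt8 in the 4nM blastomere line. The group medians of Krt7 were 264 CPM in ZHBTc4 with doxycycline in 2MYCP, 82.3 CPM in EB-TSC, 61.4 CPM in TELC, 23.1 CPM in the blastocyst and at most 7.31 CPM in the 2MYCP, 2MYP, 2MYC and mPSC groups of TC1-GFP cells and in the blastomere lines. Krt19 differed in order: the E3.5 blastocyst, rich in Krt8 and Krt18, had 1.18 CPM of Krt19, the lowest group of all, while established 2MYCP (48.1 CPM) and mPSCs (34.7 CPM) stood mid-way. Neighbours in these orders mostly overlapped: ranges of adjacent groups overlapped in 20 cases for Krt7, 19 for Krt8, 20 for Krt18 and 22 for Krt19, and stood apart in 5, 6, 5 and 3, where groups of 1 library have no range.

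**Figure D1:**
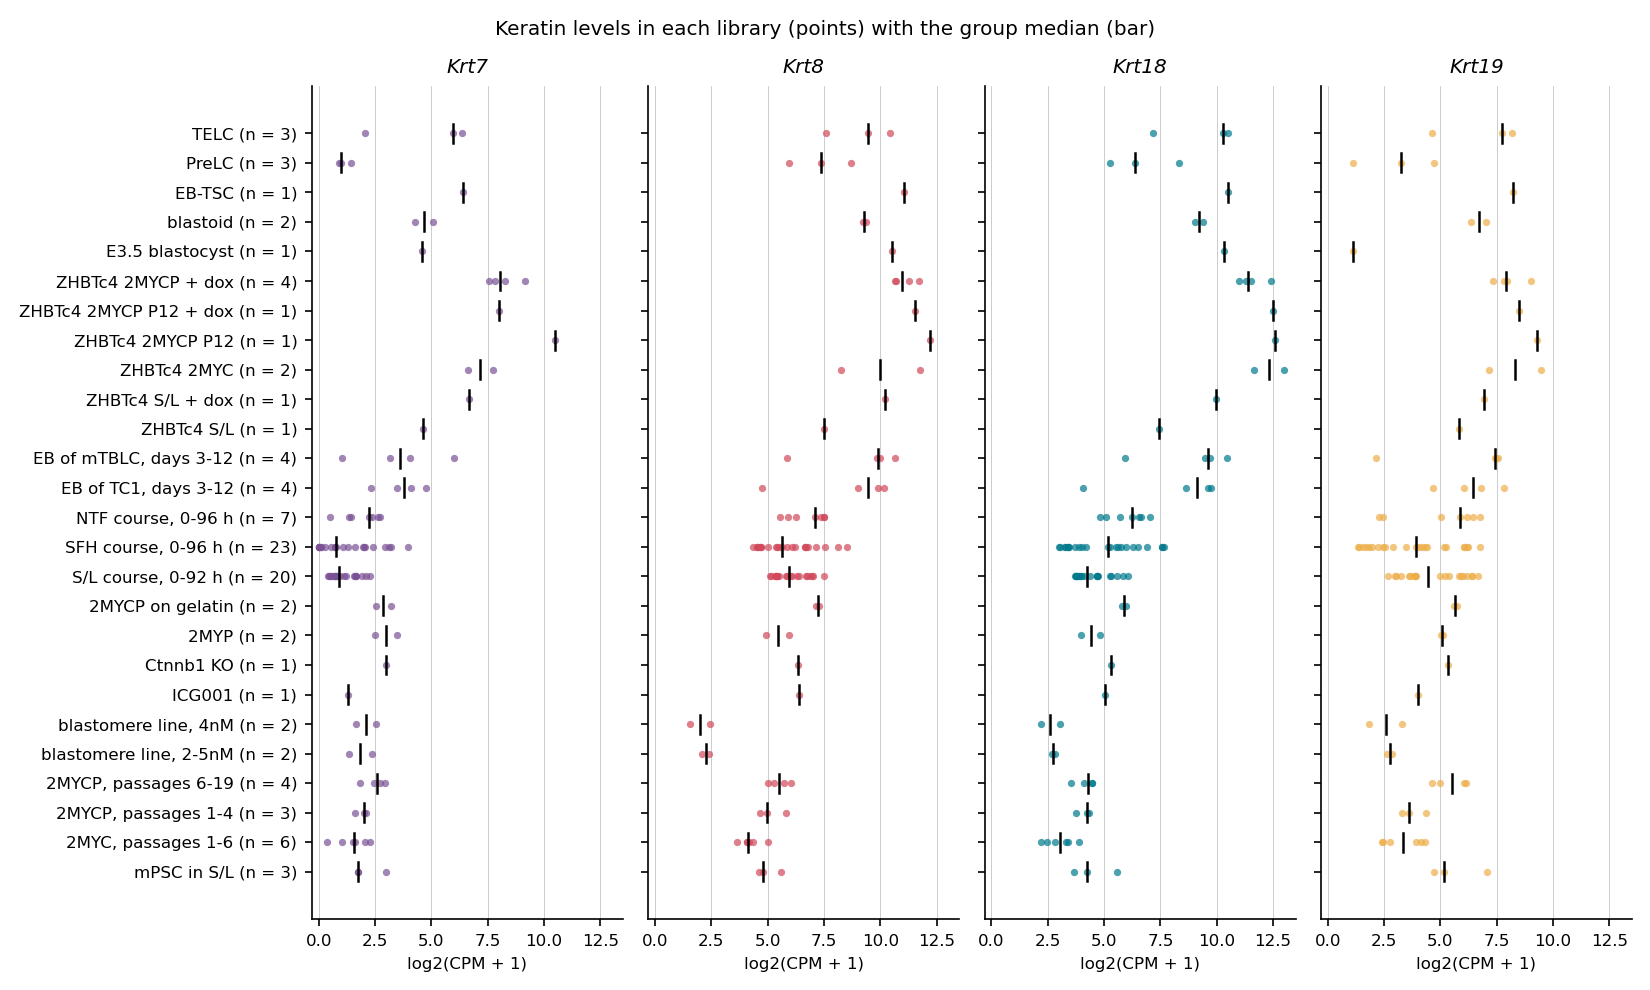
Levels of the 4 keratins as log2(CPM + 1) in every library (points), with the group median as a bar and 1 row per group. The ZHBTc4 rows in 2MYCP lie among the furthest right in every panel, the blastomere rows far to the left for Krt8 and Krt18, and the blastocyst is leftmost for Krt19.

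The balance between the 4 genes differed between cultures. Per kilobase of transcript (1.958 kb for Krt8, 1.437 kb for Krt18, 1.576 kb for Krt19), the Krt8 level was 1.72 to 2.23 times that of Krt18 in established 2MYCP cells and 1.52 to 3.02 times in the S/L course. It was 0.46 to 0.61 of the Krt18 level in ZHBTc4 with doxycycline in 2MYCP, 0.42 to 0.97 in TELC, 0.71 and 0.83 in blastoids, 0.84 in the blastocyst and 0.39 to 0.58 in the blastomere lines. The type II member of this pair was thus the more abundant one in established 2MYCP and the less abundant one in the ZHBTc4, TELC, blastoid, blastocyst and blastomere libraries named. Krt19 made up 57.2% to 79.8% of the 2 type I keratins per kilobase in established 2MYCP and 55.9% to 72.7% in mPSCs. Its share was 6.599% to 8.27% in ZHBTc4 with doxycycline in 2MYCP, 11.8% to 17.4% in TELC, 2.75% to 8.44% in PreLC, 12.1% and 14.9% in blastoids and 0.0847% in the blastocyst. Of these 2 type I keratins, established 2MYCP cells and mPSCs held mostly Krt19. The share in early 2MYCP cells (30.8% to 47.97%) and the blastomere lines (39.6% to 52.8%) lay between. In the shallow ZHBTc4 library in 2MYC, Krt8 was 0.068 of Krt18 per kilobase (299.8 against 3226 CPM), far below the 0.31 of its passage 3 partner. These ratios were described without a test.

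**Figure D2:**
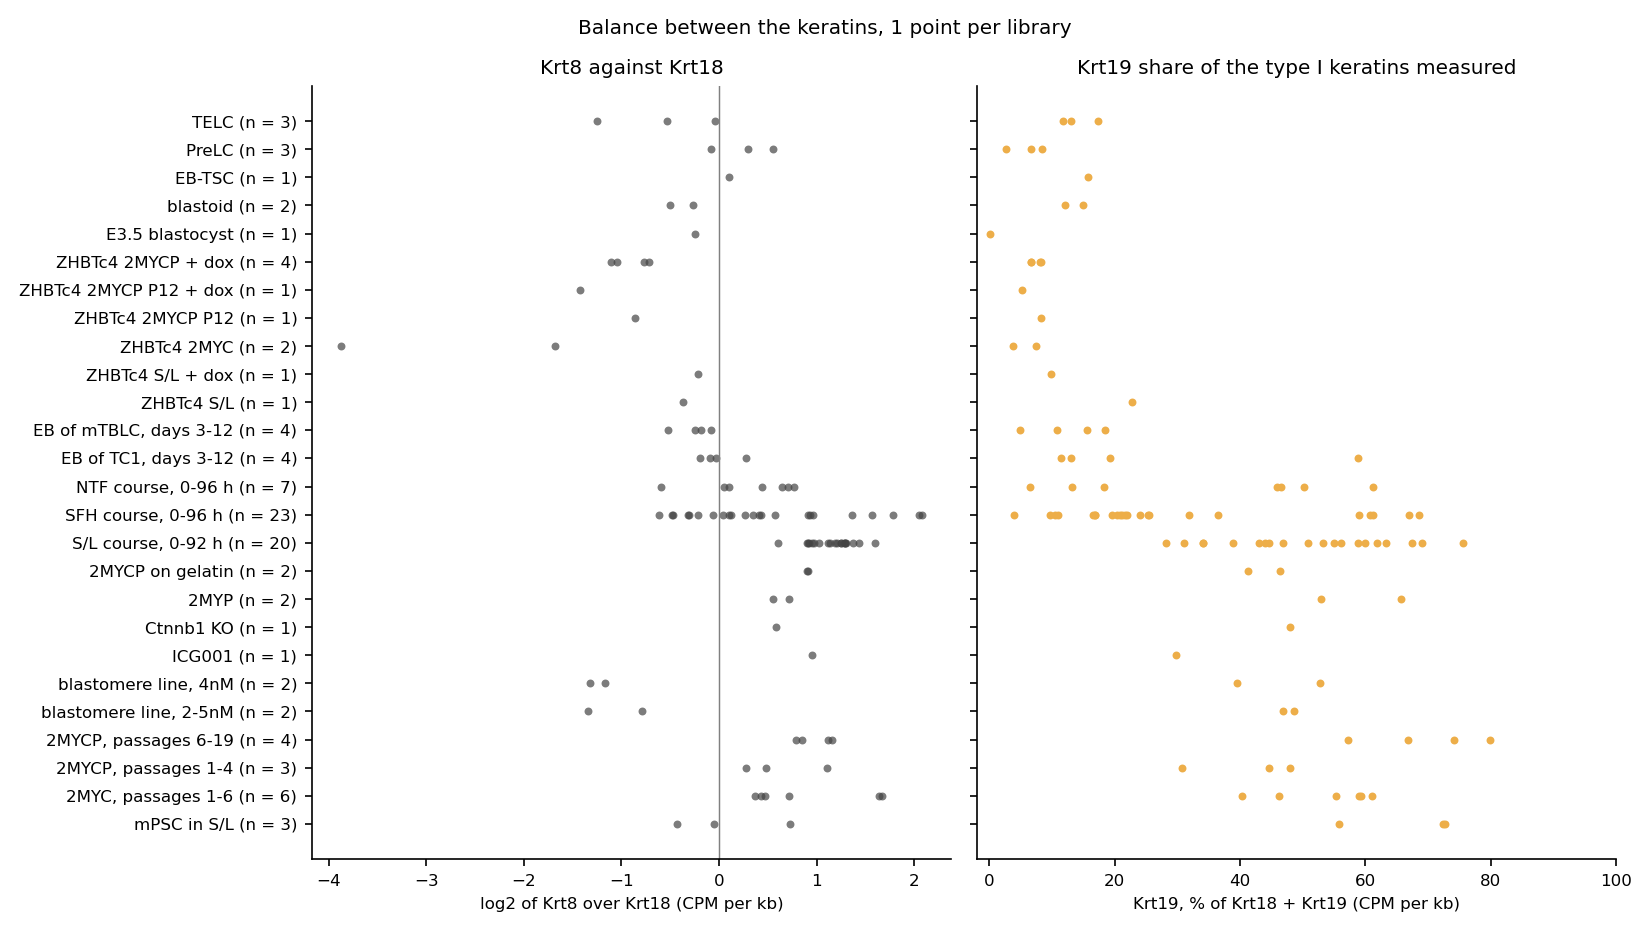
Left, log2 of the Krt8 over the Krt18 level, both in CPM per kilobase, with equal levels at 0; right, Krt19 as a percentage of Krt18 plus Krt19 per kilobase; 1 point per library. The 2MYCP, 2MYC and S/L course rows sit right of 0 on the left panel, and the ZHBTc4 rows sit left of 0 and, apart from S/L without doxycycline, at 9.91% or less on the right panel.

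ZHBTc4 cells with doxycycline in 2MYCP, set against early 2MYCP cells of TC1-GFP, had the largest keratin rises of the comparisons tested. Krt18 had 2022, 2948, 5345 and 2485 CPM in ZHBTc4 cells with doxycycline at passages 1 to 4, against 18.2, 12.6 and 19.04 CPM in early 2MYCP cells. Krt8 had 1615, 2443, 3379 and 1640.4 CPM in ZHBTc4 cells with doxycycline, against 30.0, 24.0 and 55.9 CPM in early 2MYCP. Krt19 had 158, 228, 516 and 246 CPM in ZHBTc4 cells with doxycycline, against 8.88, 11.2 and 19.3 CPM in early 2MYCP. All 4 keratins rose, where 13% of the 15670 genes tested rose: Krt18 by a log2 fold change of 7.59 ± 0.50 (SE; edgeR, adjusted p = 0.00039), Krt7 by 6.82 ± 0.53 (0.00063), Krt8 by 5.96 ± 0.49 (0.00068) and Krt19 by 4.45 ± 0.52 (0.0019). Krt7 rose to 188, 222, 568.3 and 306 CPM in these ZHBTc4 cells, against 3.08, 2.07 and 3.33 CPM in early 2MYCP, the scarcest of the 4 genes in early 2MYCP. The 2 groups also differ in cell line, so line and doxycycline cannot be told apart in this comparison. Within ZHBTc4 cells in S/L, Krt8 had 1186 CPM with and 181 CPM without doxycycline, and Krt18 1011 and 172 CPM, 1 library each. At passage 12 in 2MYCP, all 4 keratins were lower with doxycycline than without it, 1 library each. Krt8 had 2958 CPM with and 4633 CPM without doxycycline, Krt18 5827 and 6197 CPM, Krt19 356 and 616 CPM and Krt7 251 and 1436 CPM. The library without doxycycline was the one low in Pou5f1.

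Of the 17 desmosome and keratin anchoring genes, 6 rose and 4 fell in ZHBTc4 with doxycycline (median log2 fold change 0.67, against 0.06 over all genes). Pkp3, a plakophilin that links desmosomal cadherins to desmoplakin, rose by 3.57 ± 0.48, the desmosomal cadherin Dsc2 by 2.83 ± 0.56 and desmoplakin, Dsp, by 2.20 ± 0.50, while the linker Dst fell by 1.78 ± 0.44 on the log2 scale. Of 24 apical junction genes 12 rose, led by the claudins Cldn3 (6.50 ± 0.85) and Cldn7 (4.85 ± 0.38), and none fell. Of 20 trophectoderm transcription factors 10 rose and 2 fell; Hand1, which drives trophoblast giant cells, rose by 8.11 ± 0.92 and Gata2 by 6.51 ± 1.15, whereas Eomes fell by 2.95 ± 0.33. All 7 pluripotency genes fell, where 12.0% of all genes fell. The defining trophectoderm factor Cdx2 had 38.3, 5.35, 1.54 and 0.72 CPM at passages 1 to 4, lower at each later passage, while keratins were as high at passage 4 as at passage 1. Fibroblast genes, which can come from feeder cells, summed to 660 to 2577 CPM in ZHBTc4 with doxycycline and 791 to 1536 CPM in early 2MYCP; their part in the result was not tested. The gene length slope was -0.25 to 1.65 in these ZHBTc4 libraries and 1.36 to 1.41 in early 2MYCP, and its part was not tested either. In bulk libraries like these, fewer cells of a type and less RNA per cell cannot be told apart.

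TELC, PreLC and blastoids were each set against established 2MYCP cells, which serve as the control in all 3 comparisons. Krt18 had 143, 1231 and 1434 CPM in TELC at passages 0, 1 and 2, 82.8, 36.8 and 319 CPM in PreLC at the same passages and 679 and 529 CPM in blastoids, against 10.6, 16.0, 20.97 and 20.9 CPM in established 2MYCP. Krt8 had 188, 705 and 1354 CPM in TELC, 165, 61.4 and 411 CPM in PreLC and 653 and 599 CPM in blastoids, against 31.4, 37.6, 63.6 and 51.4 CPM in established 2MYCP. All libraries of the derived cultures lay above established 2MYCP for Krt18, and for Krt8 the lowest PreLC library, at 61.4 CPM, lay within the 2MYCP range. In TELC all 4 keratins rose, where 18.5% of 17814 genes rose: Krt18 by 6.46 ± 0.84 (edgeR, adjusted p = 0.00018), Krt8 by 4.67 ± 0.67 (0.00027), Krt7 by 4.02 ± 0.75 (0.0012) and Krt19 by 2.60 ± 0.84 (0.028). In blastoids 3 rose, where 4.96% of genes rose: Krt18 by 5.41 ± 0.83 (0.0016), Krt8 by 4.03 ± 0.68 (0.0028) and Krt7 by 2.67 ± 0.77 (0.040). In PreLC 2 rose, where 12.9% of genes rose: Krt18 by 3.56 ± 0.75 (0.0035) and Krt8 by 2.66 ± 0.62 (0.0066). Krt7 and Krt19 did not follow in PreLC, with differences of -1.57 ± 0.76 (adjusted p = 0.13) and -1.54 ± 0.86 (0.19).

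The Krt19 call in TELC and the Krt7 call in blastoids were the weakest of these. Without any 1 of the established 2MYCP libraries the TELC value of Krt19 had an adjusted p of 0.053 to 0.073, without TELC passage 1 or passage 2 of 0.18 and 0.100, and without TELC passage 0 of 0.0045. The blastoid value of Krt7 had an adjusted p of 0.082 to 0.28 without any 1 library of the 2 groups. TELC at passage 0 stood apart from the later passages in all 4 genes, with Krt7 at 3.14 CPM against 61.4 and 80.0 CPM at passages 1 and 2, and Krt19 at 23.5 CPM against 285 and 211 CPM. The gene length slope moved with this, at 0.99 in TELC at passage 0 and -0.98 and -0.73 at passages 1 and 2, and at 1.56 to 1.66 in established 2MYCP. With the trend of level with gene length removed from each library, the TELC values were 5.65, 4.32 and 4.58 for Krt18, Krt8 and Krt7, which still passed, and 1.93 for Krt19 (adjusted p = 0.076).

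Epithelial partner genes were counted in the same comparisons. Of 24 apical junction genes, 17 rose in TELC, 16 in PreLC and 20 in blastoids, where 18.5%, 12.9% and 4.96% of all genes rose, with 1 falling, in PreLC. Cldn7, a claudin of tight junctions, rose by 6.33 ± 0.60 in TELC, 5.40 ± 0.58 in PreLC and 6.14 ± 0.62 in blastoids. Of 17 desmosome and anchoring genes 3, 4 and 2 rose in TELC, PreLC and blastoids, and 3, 4 and 2 fell, where 13.1%, 13.1% and 4.61% of all genes fell; in TELC the share of the list that rose was near that of all genes. Dsp rose in each (1.93 ± 0.42, 1.89 ± 0.42 and 1.65 ± 0.46). Markers of primitive endoderm, the other extra-embryonic lineage of the blastocyst, also rose, in 16, 18 and 14 of 20. Their summed level was 5650 to 23290 CPM in TELC, 30339 to 45465 CPM in PreLC and 30950 to 31602 CPM in blastoids, against 2140 to 7363 CPM in established 2MYCP. They did not follow the keratin order: the highest sum was in PreLC, which had the lowest median Krt8 and Krt18 of the 3 cultures. Their defining gene Gata6 had 162, 33.6 and 76.0 CPM in TELC and 522, 442 and 283 CPM in PreLC. Of the trophectoderm factors, only the defining gene Cdx2 is given here for these cultures, and it does not stand for the others. Cdx2 had 1.96, 11.1 and 7.09 CPM in TELC, 4.99, 3.10 and 8.05 CPM in PreLC and 11.2 and 38.0 CPM in blastoids. Established 2MYCP had 0.53 to 2.11 CPM of Cdx2, and the E3.5 blastocyst held 554 CPM. The part of either lineage in the keratin levels was not tested.

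TELC was also set against PreLC and against ZHBTc4 with doxycycline. Against PreLC only 1 of 4 keratins rose, where 0.747% of genes rose: Krt7, with 3.14, 61.4 and 80.0 CPM in TELC against 0.96, 0.84 and 1.71 CPM in PreLC (5.58 ± 0.92, adjusted p = 0.021). Krt7 was higher in every TELC library than in any PreLC library, while Krt8 overlapped between them. Krt19 (4.15 ± 0.997, adjusted p = 0.056), Krt18 (2.90 ± 0.81, 0.076) and Krt8 (2.01 ± 0.67, 0.11) were higher in TELC without passing. These calls rested on single libraries: all 4 passed without TELC passage 0 or without PreLC passage 2, and none passed without TELC passage 1 or 2 or without PreLC passage 0 or 1. Against ZHBTc4 with doxycycline Krt7 fell by 2.19 ± 0.75 on the log2 scale (adjusted p = 0.048, where 8.72% of genes fell), having 188 to 568.3 CPM in the ZHBTc4 cells. That call was lost without any 1 of the ZHBTc4 libraries of passages 2, 3 and 4 or without TELC passage 1 or 2 (adjusted p = 0.052 to 0.12), and with the gene length trend removed (-1.86, 0.091). The other 3 keratins did not pass there: the differences were -1.09 ± 0.62 for Krt8, -1.23 ± 0.73 for Krt18 and -0.16 ± 0.82 for Krt19.

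**Figure D3:**
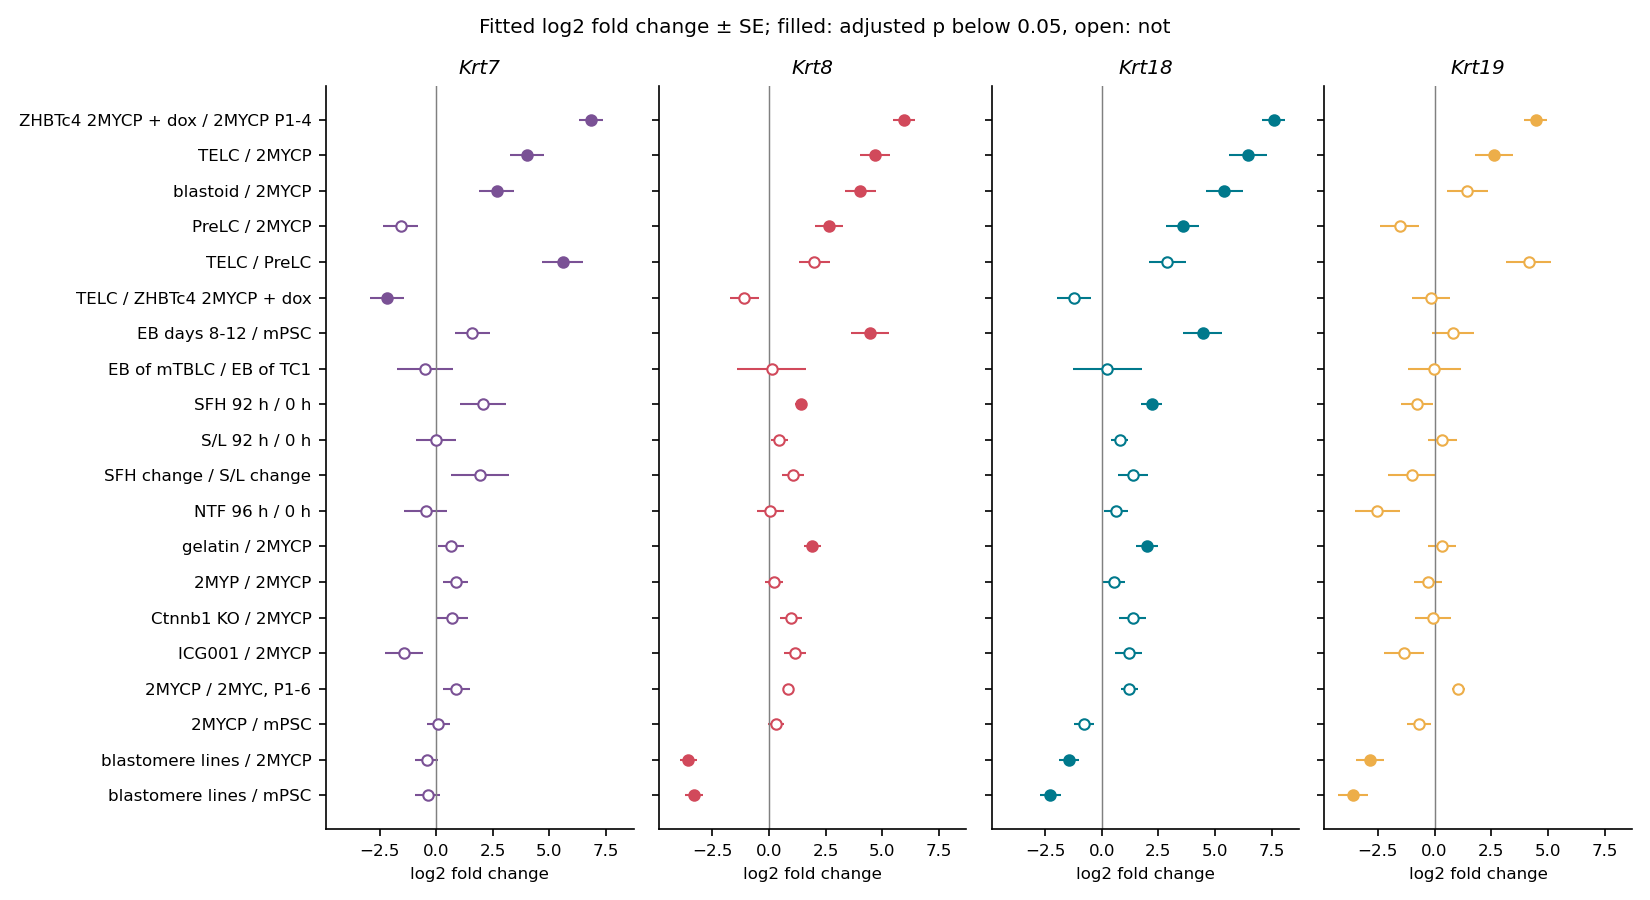
Fitted log2 fold changes of the 4 keratins with their standard errors in 20 comparisons, the first-named group over the second; filled points passed an adjusted p of 0.05 and open points did not. The upper rows, with ZHBTc4, TELC, blastoids and PreLC over 2MYCP, carry filled points for Krt8 and Krt18 to the right of 0, and the blastomere rows carry them to the left.

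EBs of days 8 to 12 had more Krt8 and Krt18 than mPSCs. Krt8 had 57.4, 1009 and 908 CPM in EBs of mTBLCs and 509.7, 938 and 1152 CPM in EBs of TC1-GFP at days 8, 10 and 12, against 23.6, 47.2 and 26.7 CPM in mPSCs. The groups did not overlap, the mTBLC library labelled day 8 being nearest to the mPSCs. The day 3 libraries, not in this test, had 1606 CPM of Krt8 in EBs of mTBLCs, the highest of that group, and 25.8 CPM in EBs of TC1-GFP. Krt8 rose by 4.45 ± 0.83 (edgeR, adjusted p = 0.0055) and Krt18 by 4.46 ± 0.86 (0.0063), 2 of 4 keratins, where 11.1% of 15253 genes rose. Krt7 (1.60 ± 0.79, adjusted p = 0.16) and Krt19 (0.81 ± 0.91, 0.54) did not pass. Without the mTBLC library labelled day 8, Krt7 also passed (1.83, adjusted p = 0.027). EB libraries of the same day deviated together (correlations of 0.31 to 0.59 at days 8, 10 and 12), so the 6 are not fully independent; with the 3 EBs of TC1-GFP alone Krt8 rose by 4.64 and Krt18 by 4.62 (adjusted p = 0.0016 and 0.0035). Of the 17 anchoring genes 4 rose, led by Dsc2 (3.57 ± 0.69) and Dsp (2.68 ± 0.61), and Pkp3 fell by 1.31 ± 0.37 on the log2 scale, where 11.9% of all genes fell. Of 24 junction genes 12 rose. Markers of other cell types rose in the same comparison. Of 20 primitive endoderm genes 17 rose, among them Foxa2 (5.66 ± 0.80), and their sum was 5048 to 18871 CPM in these EBs, against 1802 to 3879 CPM in mPSCs. Of 7 heart muscle genes 4 rose, among them Myh7 (7.07 ± 1.69), with a sum of 18.9 to 699 CPM in these EBs, against 4.40 to 15.4 CPM in mPSCs. Their part in the keratin levels was not tested.

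Over all 4 days, no keratin differed past the test between EBs of mTBLCs and of TC1-GFP. Krt8 was far higher in the mTBLC library at day 3, and at day 8 the order was the opposite. With day as a block none of the 4 keratins passed, and 0.00% of 15546 genes passed; at an unadjusted p of 0.05 0 of the 4 keratins and 367 genes passed, and with DESeq2 0 of the 4 and 8 genes. The difference of Krt8 was 0.13 ± 1.52, an interval of 2 SE reaching from -2.92 to 3.18, so large differences in either direction were within error. With days 10 and 12 alone, the EBs of mTBLCs and of TC1-GFP differed by -0.15 in Krt8 and -0.12 in Krt18 (adjusted p = 0.57 and 0.63), and Krt7 fell by 0.89 on the log2 scale (adjusted p = 0.023), having 7.84 and 15.7 CPM in EBs of mTBLCs, against 15.9 and 25.7 CPM in EBs of TC1-GFP.

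In the 3 time courses Krt8, Krt18 and Krt19 were each higher in the first hours, low in mid-course and higher again at the end, described here from single libraries per hour. In SFH, Krt8 stood at 41.4 CPM at 0 h, 108 CPM at 4 h, 19.1 CPM at 48 h and 361 CPM at 96 h. In S/L it stood at 65.6 CPM at 0 h, 127 CPM at 8 h, 32.8 CPM at 40 h and 177 CPM at 92 h, and in NTF at 76.2 CPM at 0 h, 180.7 CPM at 10 h, 45.4 CPM at 72 h and 181 CPM at 96 h. The trough came later in NTF than in the other media. Krt18 followed, with 7.18 CPM at 0 h, 62.3 CPM at 4 h, 6.91 CPM at 28 h and 199 CPM at 96 h in SFH. In SFH and S/L the early peak over 0 h was largest for Krt19, which in SFH went up 23.9-fold within 4 h to 108 CPM, its highest level of that course, and was at 1.57 CPM by 60 h and 74.3 CPM at 96 h. In S/L the Krt19 peak at 4 h was 4.53-fold and in NTF the peak at 10 h was 1.90-fold over 0 h, the smallest of the 4 genes there. Krt7 reached 14.5 CPM at 96 h in SFH and at most 3.85 CPM in S/L and 5.49 CPM in NTF. The Krt19 share of type I per kilobase was 36.5% at 0 h and 25.3% at 96 h in SFH, after 68.5% at 12 h and 3.95% at 60 h.

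**Figure D4:**
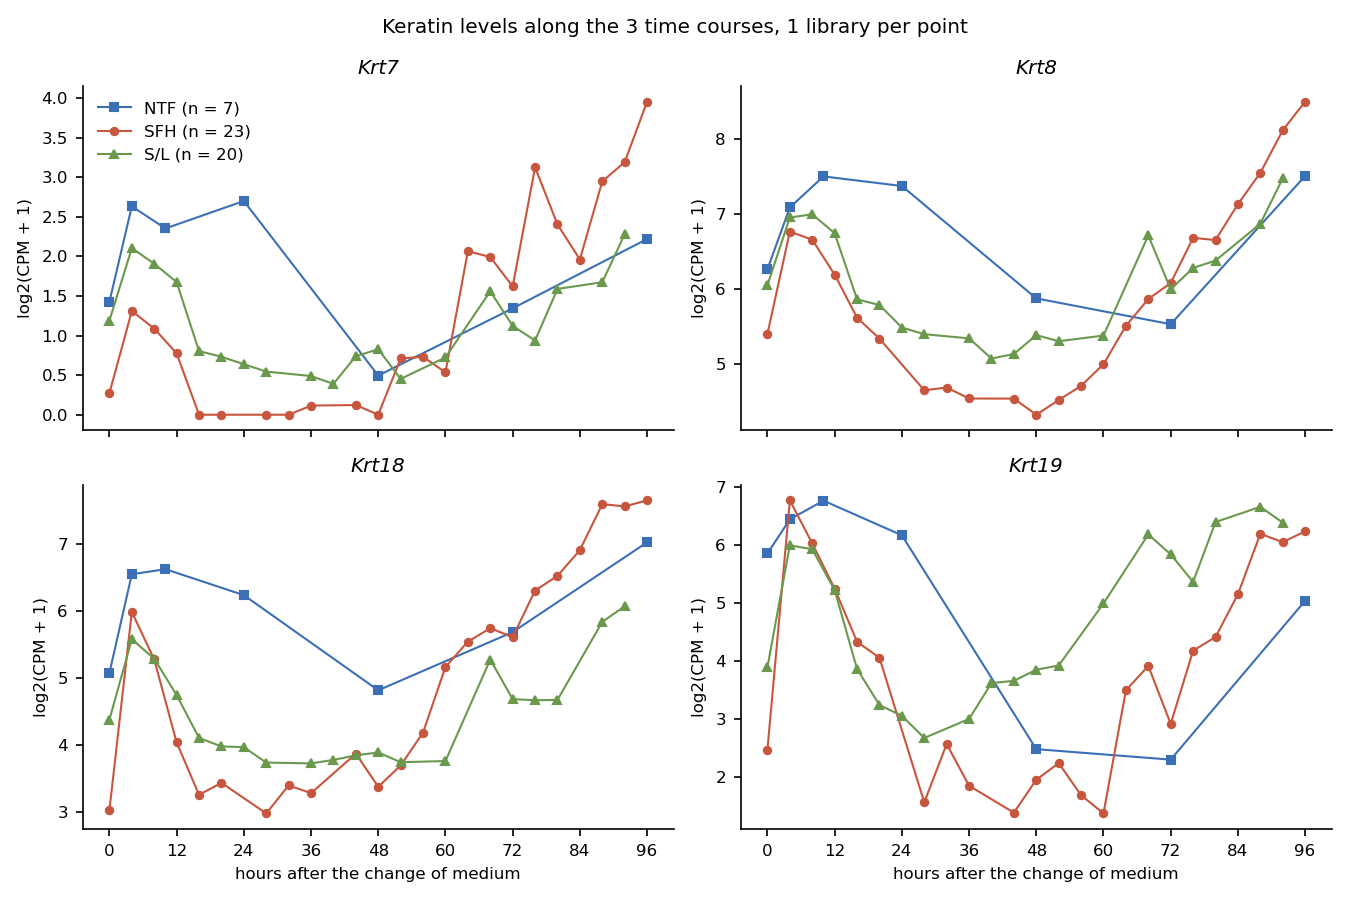
Levels of the 4 keratins as log2(CPM + 1) against hours in NTF, SFH and S/L medium, 1 library per point joined by lines. Krt8, Krt18 and Krt19 have an early maximum at 4 to 10 h in each course, lie low in mid-course and end higher, at 361 CPM of Krt8 in SFH.

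Fitted with natural splines of hours, 2 of 4 keratins rose by 92 h in SFH, where 21.5% of 16343 genes rose: Krt18 by 2.19 ± 0.45 (edgeR, adjusted p = 0.00021) and Krt8 by 1.42 ± 0.28 (0.00011). Krt7 (2.07 ± 1.002, adjusted p = 0.099) and Krt19 (-0.76 ± 0.71, 0.42) did not pass. These fitted changes differ from the measured ones. The SFH libraries had 4.53 CPM of Krt19 at 0 h and 65.1 CPM at 92 h, a rise where the fit gave a fall. Krt18 had 7.18 and 187 CPM at these hours. In S/L none of the 4 passed, where 40.5% of 16846 genes did; Krt18 was nearest (0.78 ± 0.38, adjusted p = 0.10), 0 of the 4 passed at an unadjusted p of 0.05 and 0 with DESeq2. In NTF none of the 4 passed, where 32.0% of 16381 genes did, with 1 of the 4 at an unadjusted p of 0.05 and 0 with DESeq2. Krt19 had the largest fitted difference between 96 h and 0 h, -2.53 ± 0.99 (adjusted p = 0.070). The measured levels differed less for Krt19, with 56.7 CPM at 0 h and 31.8 CPM at 96 h, than for Krt18, with 32.7 and 129 CPM. The change in SFH minus that in S/L was 1.06 ± 0.48 for Krt8 and 1.38 ± 0.66 for Krt18, and none of the 4 keratins passed this test of the difference (edgeR, adjusted p = 0.15 and 0.18 for these, where 11.9% of 17745 genes passed), with 2 at an unadjusted p of 0.05 and 0 with DESeq2. A spline of few degrees of freedom smooths over the early peak, so its values at the first and last hours need not match those libraries. In S/L, Krt8 had 65.6 CPM at 0 h and 177 CPM at 92 h, beside a fitted change of 0.46. The number of degrees of freedom changed these calls. With 1 fewer, Krt18 and Krt19 passed in S/L (0.92 and 2.18, adjusted p = 0.0041 and 0.0010) and all 4 passed in the difference between media. In NTF, 1 degree of freedom more gave 1.27 for Krt8 and 1.75 for Krt18 (adjusted p = 0.0089 and 0.0088). Krt19 passed in NTF without the 24 h library (-2.40, adjusted p = 0.037). It also passed without the 0 h library (-3.34, 0.012), where the fitted 0 h value was extrapolated from later hours. That value therefore does not describe the measured change from 56.7 to 31.8 CPM.

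In the same spline fits Dsp, the desmosomal anchor, passed in each course. Its fitted rise was 2.09 ± 0.33 in NTF, 2.14 ± 0.28 in SFH and 2.53 ± 0.29 in S/L, although Krt8 passed in SFH alone. These fits, and those of the genes below, need not match the measured levels at the first and last hours either. Of 24 junction genes 14, 19 and 10 rose in NTF, SFH and S/L, where 16.7%, 21.5% and 21.3% of all genes rose; Cldn6, a claudin, rose by 4.81 ± 0.33, 4.22 ± 0.32 and 2.91 ± 0.28. Primitive endoderm genes rose in 16, 19 and 19 of 20, and the fibroblast genes fell in 12, 14 and 12 of 14 tested, where 15.3%, 19.7% and 19.3% of all genes fell; the fibroblast sum was 57.0 to 839 CPM in SFH and 59.3 to 218 CPM in S/L. Their part in the keratin levels was not tested.

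On gelatin, 2MYCP cells had more Krt8 and Krt18 than established 2MYCP cells. Krt8 had 142 and 156 CPM on gelatin (passages 7 and 8), against 31.4 to 63.6 CPM in established 2MYCP. Krt18 had 55.2 and 61.1 CPM on gelatin, against 10.6 to 20.97 CPM in established 2MYCP. Both genes were higher in each gelatin library than in any 2MYCP library, and Krt7 (8.10 and 4.87 CPM on gelatin) and Krt19 (52.4 and 47.0 CPM) overlapped the 2MYCP range. Krt8 rose by 1.91 ± 0.39 (edgeR, adjusted p = 0.0084) and Krt18 by 1.99 ± 0.48 (0.018), 2 of 4 keratins, where 7.73% of 17525 genes rose. Without gelatin passage 7 neither passed (adjusted p = 0.059 and 0.100), without gelatin passage 8 neither passed (0.051 and 0.081), and without established passage 6, 8 or 19 Krt18 had 0.060, 0.067 and 0.056. Of 24 junction genes 8 rose, led by Cldn4 (2.65 ± 0.29) and Rab25 (2.26 ± 0.52), and of the anchoring genes only Jup, plakoglobin, did (0.97 ± 0.26). Vim, the intermediate filament gene of mesenchymal cells, fell by 2.43 ± 0.52 on the log2 scale. Fibroblast genes fell in 14 of 15, where 8.61% of all genes fell: they summed to 60.8 and 92.1 CPM on gelatin and to 1726 to 2799.9 CPM in established 2MYCP. The gene length slope also moved, with -0.27 and 0.78 on gelatin and 1.56 to 1.66 in established 2MYCP; with the trend of level with gene length removed, Krt8 still rose by 1.68 and Krt18 by 1.60 (adjusted p = 0.0057 and 0.012). The part of fibroblast RNA in the keratin levels was not tested.

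The other changes to 2MYCP culture moved no keratin past the test. In the Ctnnb1 knock-out library the targeted gene, which encodes beta-catenin, had 174 CPM, against 893 to 926 CPM in established 2MYCP. Ctnnb1 was also low in libraries with no knock-out, at 199 CPM in TELC passage 1 and 222 CPM in 1 mPSC library; the gene length slope was negative in all 3 (-0.27 in the knock-out), and its part was not tested. Krt8 had 79.2 CPM and Krt18 38.7 CPM in the knock-out, each above the highest established library (63.6 and 20.97 CPM), with differences of 0.96 ± 0.49 and 1.36 ± 0.60 (edgeR, adjusted p = 0.27 and 0.21). None of the 4 passed, where 0.00571% of 17525 genes did, and 1 did at an unadjusted p of 0.05 and 0 with DESeq2. With ICG001 Krt8 had 83.7 CPM and Krt18 31.8 CPM, again above established 2MYCP, and Krt7 (1.47 CPM) and Krt19 (14.8 CPM) lay below it. None of these differences passed (1.15 ± 0.49, 1.18 ± 0.60, -1.41 ± 0.84 and -1.37 ± 0.88; adjusted p = 0.12, 0.19, 0.26 and 0.29), where 13.7% of genes did, with 1 of the 4 at an unadjusted p of 0.05 and 0 with DESeq2. Set against gelatin instead, Krt8 was lower by 0.95 in the knock-out and by 0.77 with ICG001, without passing. Fibroblast genes summed to 1836 CPM in the knock-out and 259 CPM with ICG001. In 2MYP, Krt8 had 60.4 and 29.7 CPM and Krt19 33.3 and 31.3 CPM, within or near the established range. At passage 7, Krt18 (26.96 CPM) and Krt7 (9.95 CPM) lay above the highest established library (20.97 and 6.73 CPM). At passage 8 both lay within the established range (14.9 and 4.68 CPM). None of the 4 passed in 2MYP, where 6.31% of genes did, with 0 at an unadjusted p of 0.05 and 0 with DESeq2.

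Between 2MYCP and 2MYC at passages 1, 2, 4 and 6, with passage as a block, the fitted difference of all 4 keratins was above 0 and none passed. Krt8 had 30.0, 24.0, 55.9 and 31.4 CPM in 2MYCP, against 11.4, 15.9, 19.2 and 30.8 CPM in 2MYC. It was higher in 2MYCP at each of the 4 passages, by little at passage 6, where Krt18 (10.6 CPM in 2MYCP, against 13.7 CPM in 2MYC) and Krt7 (2.51 CPM in 2MYCP, against 3.83 CPM in 2MYC) were lower in 2MYCP. Differences were 0.84 ± 0.25 for Krt8, 1.22 ± 0.39 for Krt18, 1.05 ± 0.30 for Krt19 and 0.89 ± 0.59 for Krt7 (edgeR, adjusted p = 0.057, 0.074, 0.052 and 0.34, where 12.8% of 15291 genes passed). At an unadjusted p of 0.05 3 of the 4 passed, and 3 did with DESeq2 or with no filter on low counts. The 2MYC libraries were shallow, with 6.26 to 7.98 M counts. Pkp2 (1.53 ± 0.26) and Dsg2 (1.03 ± 0.21), a plakophilin and a desmosomal cadherin, rose in 2MYCP, and Dsp fell by 0.78 ± 0.14 on the log2 scale.

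Established 2MYCP cells and mPSCs did not differ in any keratin past the test, where 19.4% of 17525 genes did. Krt8 had 31.4 to 63.6 CPM in established 2MYCP, against 23.6, 47.2 and 26.7 CPM in mPSCs (0.31 ± 0.36, adjusted p = 0.57), and Krt18 10.6 to 20.97 CPM against 17.998, 46.6 and 11.9 CPM (-0.79 ± 0.44, 0.22). The ranges overlapped for each of the 4 genes. At an unadjusted p of 0.05 0 of the 4 passed and with DESeq2 0. One mPSC library had 135 CPM of Krt19, against 25.01 and 34.7 CPM in the other two, and a gene length slope of -0.74, against 1.36 and 1.24. Without it the Krt19 difference was 0.51 in place of -0.70 and that of Krt18 0.10 in place of -0.79. Junction genes did differ: 10 of 24 fell in established 2MYCP and 0 rose, where 9.88% of all genes fell, led by Cldn7 (fell by 3.48 ± 0.34 on the log2 scale).

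Blastomere-derived lines had the lowest group medians of Krt8 and Krt18. Krt19 was lower in the blastocyst (1.18 CPM), and Krt7 was lower in other groups, such as the SFH course (median 0.71 CPM). Krt8 had 4.36 and 1.96 CPM in the 4nM line and 3.22 and 4.29 CPM in the 2-5nM line at passages 4 and 5, against 31.4 to 63.6 CPM in established 2MYCP and 23.6 to 47.2 CPM in mPSCs. These 4 libraries had the lowest Krt8 of the 104. Against established 2MYCP 3 of 4 keratins fell, where 16.4% of 16320 genes fell: Krt8 fell by 3.56 ± 0.38 (edgeR, adjusted p = 7.4e-05), Krt19 fell by 2.84 ± 0.61 (0.0044) and Krt18 fell by 1.44 ± 0.44 (0.026) on the log2 scale. Against mPSCs the same 3 fell, where 16.1% of genes fell, by 3.29 ± 0.39 (0.00012), 3.60 ± 0.65 (0.0015) and 2.28 ± 0.47 (0.0036). Krt7, with 4.76 and 2.13 CPM in 4nM and 4.10 and 1.55 CPM in 2-5nM, did not pass in either comparison. Its differences were -0.43 ± 0.51 and -0.37 ± 0.55 (adjusted p = 0.55 and 0.64). Intervals of 2 SE reached from -1.44 to 0.59 and from -1.47 to 0.72, so a fall was within error. Both comparisons share the blastomere lines, which come from ICR embryos in another medium, so strain, medium and origin cannot be told apart. The lines' libraries of the same passage deviated together (correlation 0.39), so the 4 are not fully independent. With the 4nM libraries alone Krt18 and Krt19 did not pass against established 2MYCP (adjusted p = 0.15 and 0.065), and with the 2-5nM libraries alone Krt18 did not (0.12). The Krt18 call was also lost without established passage 14 or 19, without 4nM passage 5 or without either 2-5nM library (adjusted p = 0.056 to 0.067). Pou5f1 was at 964 to 1366 CPM in these lines. Of 7 pluripotency genes 1 rose against established 2MYCP, where 15.4% of all genes rose, and 0 fell. Fibroblast genes were high, summing to 4392 to 6436 CPM in the blastomere lines, against 1726 to 2799.9 CPM in established 2MYCP and 819 to 1688 CPM in mPSCs, and Col3a1 rose by 4.06 ± 0.32 against established 2MYCP, while primitive endoderm genes fell in 16 of 19 tested; their part in the low keratin levels was not tested. Of 17 anchoring genes 5 fell against established 2MYCP, among them the keratin binding protein gene Fam83h (fell by 2.20 ± 0.47 on the log2 scale) and Plec, plectin (fell by 1.10 ± 0.19).

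Other keratins were few. Of 51 other Krt genes in the tables, 8 reached a mean of 5 CPM in any group. Krt42 had a mean of 129.8 CPM in 2MYP and rose there by 2.55 ± 0.37 against established 2MYCP, together with Krt17 (1.93 ± 0.38), which is known from hair follicles and other skin appendages. Krt14, the type I keratin of basal skin cells, averaged 52.9 CPM in ZHBTc4 with doxycycline in 2MYCP, with 130 CPM in the highest library, and rose there by 8.34 ± 1.23 over early 2MYCP. Its usual type II partner Krt5 reached at most 8.00 CPM in any library. Krt13 was highest in established 2MYCP (11.2 CPM), and the remaining 4, Krt20, Krt10, Krt80 and Krt23, had highest group means of 19.01, 8.55, 6.61 and 6.11 CPM.

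Over 32 group means (each course entering as its first day, middle and last day), Krt8 and Krt18 followed each other most closely. Pearson's r of log2(CPM + 1) between them was 0.97 (Spearman's rho 0.98), and 0.96 over the 26 groups without ZHBTc4. Among 11178 genes with a mean of at least 5 CPM, each was the other's nearest gene. Krt7 correlated with Krt18 at 0.89 and with Krt8 at 0.83, and at 0.81 and 0.72 without the ZHBTc4 groups. Krt19 correlated with the other keratins at 0.72 to 0.77, and at 0.49 to 0.58 without those groups. The genes most like Krt8 after Krt18 included AI661453 (r = 0.92), Zbtb42 (0.89) and Tinagl1 (0.88). Those most like Krt18 after Krt8 were Cnksr1 (0.93), Tinagl1, Rhou and Fam83g (0.90 each). Those most like Krt7 were Epn3 (0.91), Wnt7a (0.90), Krt18, Zyx (0.89) and Eps8l2 (0.88). Without the ZHBTc4 groups, r with Krt7 was 0.71 for Epn3 and Wnt7a, 0.78 for Zyx and 0.76 for Eps8l2. The median group levels of Epn3 and Wnt7a were only 1.62 and 0.50 CPM. Those most like Krt19 were the desmosomal gene Pkp3 (0.84), Pea15a (0.84), Stap2 (0.84), Pdgfb and Fbxo4 (0.83 each). Every r listed for a similar gene was lower without the ZHBTc4 groups. These values describe groups that share cell line, depth differences and, in part, libraries of 1 course, and no p was computed.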

How the data were processed

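Raw counts per gene in 18 tables were deposited by the authors; Trimmomatic, HISAT2, featureCounts and the builds mm10 and hg38 are named per the submitters' processing notes, without versions. Whether counting used strand, and the annotation, are not given in the sources used here. CPM used each library's total over 24958 genes, after 26 rows whose symbols had become dates were left out. Differences were tested with edgeR 4.0.16 (R 4.3.3) by the quasi-likelihood test, after filterByExpr and TMM scaling, with Benjamini-Hochberg adjustment over all genes tested and a threshold of 0.05; a value after ± is the SE unless named otherwise. A fitted fold change differs from the ratio of raw CPM by the TMM scaling. TELC, PreLC, blastoids, ZHBTc4 and established 2MYCP shared 1 fit. Embryoid bodies had day as a block, and 2MYCP against 2MYC had passage. DESeq2 1.42.0, other filters, single libraries left out, other splines and removal of the gene length trend were alternatives; the last was chosen after seeing the data. The scripts were tested on simulated data. Genes named were the 4 keratins, up to 4 changed members per list and direction, the 5 most similar genes per keratin (for Krt8, 1 of them is not reported here) and other keratins with a group mean of at least 5 CPM, with Krt5 and marker genes added after their values were seen. The members and lists were chosen with earlier results of these data known.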

Additional observations from a re-analysis of the deposited data

Results flagged for a closer look

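Among 24 sets of values (4 keratins in groups of 4 to 10 libraries), 1 library stood apart from the rest of its group. Krt19 had 3.476 CPM in the embryoid body library of mTBLCs labelled day 8, against 186, 171 and 176 CPM at days 3, 10 and 12. Chance alone gives about 1 such case in 20. The same library had the lowest Krt7, Krt8 and Krt18 of its group and 944 CPM of Pou5f1, against 18.9, 60.4 and 44.6 CPM in the others. Whether its day label is right was not tested.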

How the results depend on the processing

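Of 1037 values of a keratin in a comparison under an alternative, 904 kept direction and side of the threshold, and no value that passed reversed. The number of keratins past the test moved by over 1.5 times in these cases. For gelatin against established 2MYCP it was 1 with passages 6 and 8 as controls and 0 to 2 on leaving out single libraries. For blastomere lines against established 2MYCP it was 1 with 4nM alone. For 2MYCP against 2MYC it was 3 with no filter and with DESeq2, 2 with the gene length trend removed, and 0 to 3 without single libraries. For the S/L course it was 2 and for SFH minus S/L 4 with 1 degree of freedom fewer, and for NTF 2 with 1 more and 0 to 2 without single hours. For TELC against PreLC it was 2 with DESeq2 size factors, 2 with no filter, 4 with DESeq2, 0 with these groups fitted alone and 0 to 4 without single libraries. For TELC against ZHBTc4 with doxycycline it was 0 with DESeq2 size factors and with the gene length trend removed, and 0 to 1 without single libraries. For EBs of mTBLCs against TC1-GFP it was 1 with days 10 and 12 only. Smaller moves were 3 in SFH with halved counts or 1 degree of freedom fewer, 3 in TELC with the gene length trend removed and 3 to 4 without single libraries, 2 in blastoids with DESeq2 size factors or without any 1 library, 3 in PreLC without passage 2 and 3 in late EBs without the mTBLC day 8 library. Against established 2MYCP, blastomere lines had 2 with 2-5nM alone and 2 to 3 without single libraries. Causes were not tested.

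Reversals were all of values that did not pass. Against mPSCs, Krt7 in established 2MYCP was -1.95 with the 0 h course libraries, -0.16 with all 7 passages and -0.34 with the length trend removed; without single libraries it was -0.25 to 0.91, Krt18 -1.19 to 0.10 and Krt19 -1.18 to 0.51. Krt7 in blastomere lines against mPSCs was -0.68 to 0.51. With the length trend removed, Krt19 on gelatin was -0.044, Krt8 in 2MYP -0.062 and Krt19 in EBs of mTBLCs 0.065. With gelatin as control, Krt8 and Krt18 were -0.95 and -0.63 in the knock-out and -0.77 and -0.80 with ICG001. Without single libraries, Krt8 in 2MYP was -0.44 to 0.65, Krt18 -0.0021 to 0.92, Krt19 in the knock-out -0.20 to 0.21 and Krt19 in TELC against ZHBTc4 -1.01 to 0.33. Krt7 in S/L was -0.0090 with DESeq2 size factors, -0.054 with no filter and -0.027 with DESeq2. In NTF, Krt8 was -0.12 with the stricter filter and Krt7 1.19 with 1 degree of freedom more and 0.21 without 4 h and 24 h; without single hours Krt8 was -2.52 to 0.55 and Krt18 -0.79 to 0.89, the lowest values being extrapolated to 96 h without its library. In EBs, days 10 and 12 only gave -0.15, -0.12 and 0.084 for Krt8, Krt18 and Krt19, and single libraries left out gave -1.53 to 0.46 for Krt7, -1.05 to 1.32 for Krt8, -0.92 to 1.38 for Krt18 and -1.07 to 1.04 for Krt19.

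Same-numbered libraries had correlations of 0.0022 to 0.16 for 2MYCP and 2MYC, 0.088 to 0.24 for TELC and PreLC and 0.037 to 0.087 for ZHBTc4 and early 2MYCP, so these share only a number. EBs of the same day had 0.085 at day 3 and 0.31 to 0.59 at days 8 to 12, and the blastomere lines 0.39 at each passage. With a replicate block, 0 keratins passed in TELC against PreLC (Krt7 4.78, adjusted p = 0.081), and Krt19 in ZHBTc4 with doxycycline rose by 4.06 (0.0013). Without the block, Krt8 in 2MYCP against 2MYC was 0.84 (0.080), and in EBs Krt7 was 0.80 and Krt19 0.40. Depth limits Krt7 most: it had 3 counts or fewer in 8 libraries. Groups of 1 library borrow the spread of the others.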
